A study of Mus musculus with 4 samples.

Results

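The neurotrophins and their receptors were examined in sorted inner-ear cells of newborn mice, and 6 genes were taken by symbol from a table of 12814 genes. The ligands were *Bdnf* and *Ntf3*, the receptors *Ntrk2*, *Ntrk3* and *Ngfr*, and the sorting receptor *Sort1*. All 6 were found, each in 1 row, and none was removed by a filter on low values. The cells came from *Atoh1/nGFP* mice on a C57BL/6 background, in which the regulatory sequence of *Atoh1* drives a nuclear green fluorescent protein, so that every population shared this genotype, and no treatment other than sorting is named. Hair cells (HCs), the mechanosensory cells, carried both the fluorescent protein and the epithelial surface protein CD326. Epithelial non-sensory cells (ENSCs), a mixture of supporting cells and other epithelium, carried CD326 alone. Both kinds of cell were taken from the hearing organ (cochlea) and the balance organs (vestibular system), and tissue of several animals was pooled for each sort.

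The table held 1 library for each of the 4 populations, namely cochlear HCs, cochlear ENSCs, vestibular HCs and vestibular ENSCs. No replicate spread could therefore be set beside any difference, and no tests were made. Values are a quantile-normalized signal, that is, read counts per gene forced to the same distribution in every library and floored at 20. Each library summed to 7830343 with a median of 120, so the true depth is unknown. The lowest signals of a library were ranks given to tied genes, up to 24.25 in cochlear HCs, 22.75 in cochlear ENSCs, 30.5 in vestibular HCs and 20 in vestibular ENSCs. This stretch is called the tied range. A signal inside it does not place the gene within its library, so a fold that involves it is a lower bound, computed with the top of the range. Ratios of at least 3 either way were counted as differences. The sort was checked with known genes: each of 10 listed HC genes passed 3-fold towards HCs in both organs, and *Epcam*, which encodes CD326, had signals from 1016.75 to 7511 in the 4 libraries. In bulk samples of this kind, fewer cells that make a transcript and less transcript per cell cannot be told apart.

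Neurotrophins are secreted proteins that keep neurons alive and guide their fibres. Brain-derived neurotrophic factor, the product of *Bdnf*, signals through the receptor kinase TrkB (*Ntrk2*), and neurotrophin-3, the product of *Ntf3*, signals mainly through TrkC (*Ntrk3*). All neurotrophins also bind p75 (*Ngfr*), and sortilin (*Sort1*) binds their uncleaved precursors and sorts them inside the cell. In the inner ear these ligands come from the sensory epithelium, and the neurons of the cochlear and vestibular ganglia carry TrkB and TrkC and depend on them.

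*Bdnf* (ENSMUSG00000048482) lies on the plus strand of chromosome 2, 109514857 to 109567204 in the mm9 mouse genome. It has 10 annotated protein-coding transcripts, with coding lengths from 747 to 771 nt. The transcripts start at separate first exons and share the coding sequence, so the signal per gene pools all starts. RefSeq windows, from 250 bases before to 50 after a start, were at hand for 7 *Bdnf* starts, 2 *Ntf3* starts and 1 start each of *Ntrk2* and *Ngfr*. These 11 windows were searched on both strands for the cAMP response element in its palindromic form TGACGTCA and in the form CACGTCA, for the E-box CAGCTG to which Atoh1 binds, for the half-site GTTGCC of the RFX motif and for TATAAA. Both forms of the response element end in the same letters. The form CACGTCA was added after the sequences were seen. The 2 *Bdnf* windows that held any of these are printed because *Bdnf* had the widest difference between populations of the 6 genes. They are written 5′ to 3′ on the plus strand of GRCm38.p6, a later build than that of the gene positions, and capitals mark the match.
Bdnf window at chr2:109692186-109692485: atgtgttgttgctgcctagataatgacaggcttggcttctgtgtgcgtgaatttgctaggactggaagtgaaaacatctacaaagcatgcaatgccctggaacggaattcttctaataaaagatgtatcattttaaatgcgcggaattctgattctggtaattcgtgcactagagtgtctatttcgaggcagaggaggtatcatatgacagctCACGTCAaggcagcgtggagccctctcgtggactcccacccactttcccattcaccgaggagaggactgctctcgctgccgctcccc
Bdnf window at chr2:109694159-109694458: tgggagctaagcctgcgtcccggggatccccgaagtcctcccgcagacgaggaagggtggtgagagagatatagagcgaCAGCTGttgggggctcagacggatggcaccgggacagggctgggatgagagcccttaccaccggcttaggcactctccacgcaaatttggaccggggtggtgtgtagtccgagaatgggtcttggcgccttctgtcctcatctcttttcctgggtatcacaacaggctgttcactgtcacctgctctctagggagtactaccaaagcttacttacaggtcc
The first held CACGTCA, which was found in 2.01% of all 32851 windows, and the second held CAGCTG, which was found in 16.3%. The *Ngfr* window was the only other one with a match, also of CAGCTG. None of the 11 windows held TGACGTCA (1.79% of all windows), GTTGCC (12.5%) or TATAAA (13.6%). A match is a run of letters and not a measured binding site, and which starts gave the reads was not measured.

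*Bdnf* was the member with the highest signal in HCs. Its signal was 1861.25 in cochlear HCs and 110.25 in cochlear ENSCs, and 2623.25 in vestibular HCs and 47.75 in vestibular ENSCs. Both HC libraries were thus far above both ENSC libraries. The signal was 16.9-fold higher in HCs of the cochlea (log2 ratio 4.08) and 54.9-fold higher in HCs of the vestibular system (5.78), which placed *Bdnf* at rank 136 and rank 56 from the top among the 12814 genes. The wider vestibular ratio came with a higher signal in HCs and a lower one in ENSCs. The log2 ratio was larger by 1.70 in the vestibular system, a difference above that of 90.4% of all genes. A wider vestibular ratio was not particular to *Bdnf*. Among listed HC genes, *Otof* (4.72 and 7.55) and *Pou4f3* (5.32 and 6.96) also had one, whereas *Atoh1* (4.98 and 4.65) and *Barhl1* (4.17 and 2.91) did not. Cochlear HCs had 1.41-fold less *Bdnf* signal than vestibular HCs, and cochlear ENSCs had 2.31-fold more than vestibular ENSCs, and both of these stayed under 3-fold. None of the 4 *Bdnf* signals was inside a tied range. Across 10 other settings of the floor, pseudocount, centring and threshold the log2 ratio of HCs to ENSCs lay between 3.22 and 4.08 in the cochlea and between 4.20 and 5.84 in the vestibular system, above 3-fold each time.

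**Figure D1:**
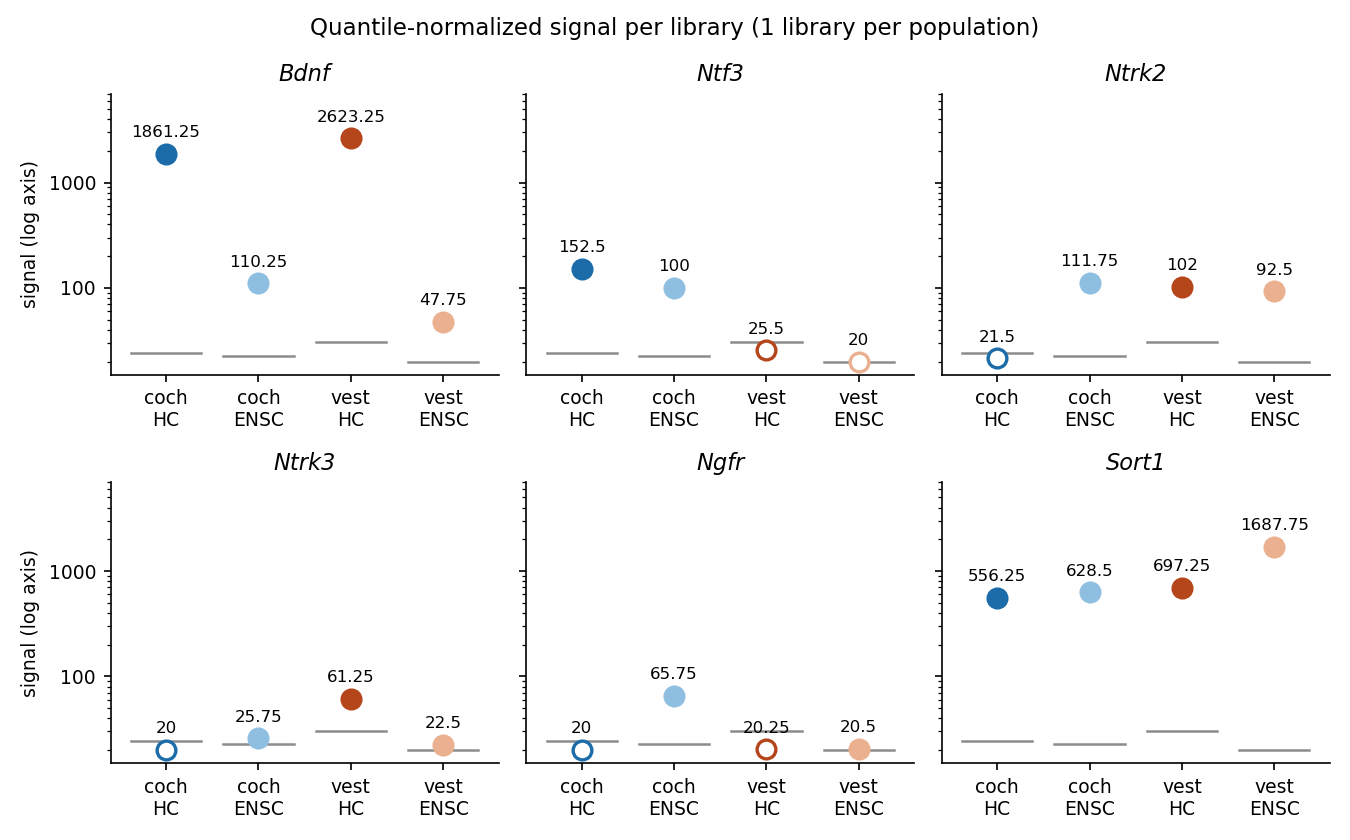
Signal of each gene (log axis) in the 4 libraries, 1 point per library with its value, so that no error bars can be drawn. Grey lines mark the top of the tied range of each library and open circles lie at or inside it. *Bdnf* reached 1861.25 and 2623.25 in HCs, *Ntf3* was above the tied range in the cochlear libraries alone, and *Sort1* was highest in vestibular ENSCs at 1687.75.

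*Ntf3* (ENSMUSG00000049107, chromosome 6, 126051431 to 126116762, minus strand) differed more by organ than by cell type. Its signal was 152.5 in cochlear HCs and 100 in cochlear ENSCs. In the vestibular system it was 25.5 in HCs, inside the tied range, and 20 in ENSCs, at the floor. Both cochlear libraries were therefore above the tied range and both vestibular libraries were not. Cochlear HCs were at least 5.0-fold above vestibular HCs, and cochlear ENSCs at least 5.0-fold above vestibular ENSCs. Among all genes the same direction past 3-fold was seen for 4.21% between the HC libraries and for 7.8% between the ENSC libraries. Within the cochlea the ratio of HCs to ENSCs was 1.525 (log2 ratio 0.61), under the threshold, and no vestibular fold is given because both signals were at the bottom of the scale. The contrast between organs rested on low signals: a floor of 100 took the log2 ratio of cochlear to vestibular HCs from 2.58 to 0.61 and that of the ENSCs from 2.32 to 0.

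To compare the 2 ligands within a library, each signal was divided by the exonic length of its gene, which was 5.85 kb for *Bdnf* and 1.427 kb for *Ntf3*. In cochlear HCs the signal per kb was 318 for *Bdnf* and 107 for *Ntf3*, a ratio of 2.98. In cochlear ENSCs the order was reversed, with 18.8 for *Bdnf* and 70.1 for *Ntf3* (ratio 0.269). In vestibular HCs *Bdnf* stood at 448 per kb, at least 21.0-fold above *Ntf3*, and in vestibular ENSCs it stood at 8.16 per kb while *Ntf3* was at the floor. *Bdnf* per kb exceeded 91.6% of all genes in cochlear HCs and 94.3% in vestibular HCs. It exceeded 33.1% of genes in cochlear ENSCs and 14.3% in vestibular ENSCs. Dividing by the longest protein-coding transcript instead gave ratios of *Bdnf* to *Ntf3* of 4.08 in cochlear HCs and 0.369 in cochlear ENSCs, with the same order.

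**Figure D2:**
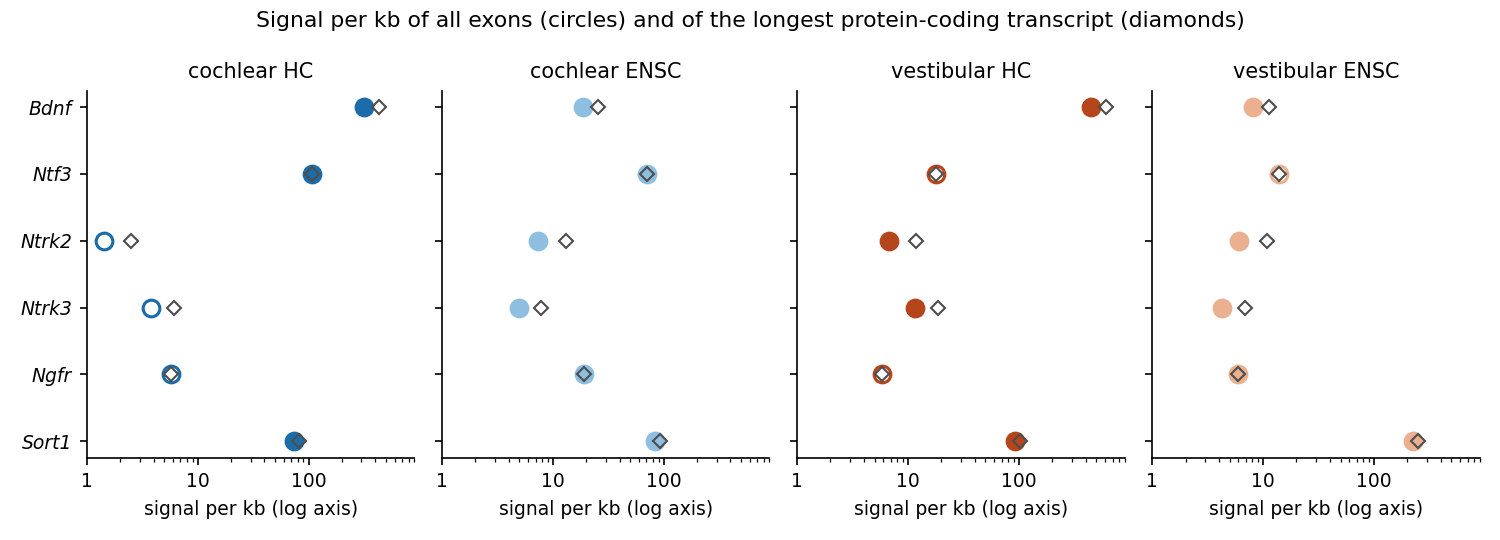
Signal per kb (log axis) of the 6 genes in each library, with circles for the length of all exons and diamonds for the longest protein-coding transcript, and open circles for signals at or inside the tied range. *Bdnf* leads in both HC libraries at 318 and 448 per kb and *Sort1* in both ENSC libraries at 83.1 and 223 per kb.

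The Trk receptors had low signals in all 4 populations. *Ntrk2* (ENSMUSG00000055254, chromosome 13, 58907957 to 59235331) had 21.5 in cochlear HCs, 111.75 in cochlear ENSCs, 102 in vestibular HCs and 92.5 in vestibular ENSCs. Cochlear HCs, inside the tied range, were the only low library, and the other 3 differed by at most 1.21-fold. Against cochlear ENSCs the signal of cochlear HCs was lower by a factor of at least 4.61 (log2 ratio of the deposited signals -2.38) and against vestibular HCs by at least 4.21 (-2.25). The vestibular log2 ratio of HCs to ENSCs was 0.14. *Ntrk2* has 5 annotated protein-coding transcripts, with coding lengths from 1365 to 2463 nt. The gene is known for a full-length receptor kinase and for truncated receptors without the kinase, and a signal per gene cannot tell these apart. With a floor of 50 the log2 ratio of cochlear HCs to cochlear ENSCs was -1.16, under 3-fold.

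*Ntrk3* (ENSMUSG00000059146, chromosome 7, 85337248 to 85723294) was highest in vestibular HCs. Its signal was 61.25 there, 22.5 in vestibular ENSCs, 25.75 in cochlear ENSCs and 20 in cochlear HCs, at the floor. The vestibular ratio of HCs to ENSCs was 2.72 (log2 ratio 1.44), under 3-fold, and it passed 3-fold after the ratios were corrected for their trends on gene length and GC content (1.73). Vestibular HCs were 3.06-fold above cochlear HCs by the deposited signals. As a lower bound against the tied range this was 2.53-fold, so that the call did not hold. Like *Ntrk2*, this gene has transcripts of different coding length, 1836 and 2475 nt.

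*Ngfr* (ENSMUSG00000000120, chromosome 11, 95430132 to 95449049), the p75 receptor, was above the bottom of the scale in 1 population. Its signal was 65.75 in cochlear ENSCs, 20 in cochlear HCs, 20.25 in vestibular HCs and 20.5 in vestibular ENSCs. Cochlear ENSCs were 3.21-fold above vestibular ENSCs (log2 ratio 1.68), whose signal of 20.5 was only just above their tied range, which ended at 20. This call rested on low signals: the log2 ratio was 2.51 after correction for length and GC content, but 1.08 with a pseudocount of 20, 0.40 with a floor of 50 and 0 with a floor of 100. Above cochlear HCs they were 3.29-fold by the deposited signals and at least 2.71-fold against the tied range, which is under the threshold. No fold between vestibular HCs and ENSCs is given, because both signals were at the bottom of the scale. In the cochlea p75 is known as a protein of pillar cells, which are supporting cells and belong to the ENSCs. The 10 listed genes of pillar and other supporting cells had summed signals of 8343.75 in cochlear HCs, 76605.25 in cochlear ENSCs, 12319.25 in vestibular HCs and 17598.25 in vestibular ENSCs. In cochlear ENSCs *Epyc* alone gave 62028.5 of this, and without it the sums were 7580, 14576.75, 12109.25 and 16479 in the same order. Of the 10 genes 3 were highest in cochlear ENSCs, the library with the *Ngfr* signal.

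Receptors of neurotrophins are also carried by neurons, glia and other cells around the epithelium, so their markers are given beside these values. The sort kept cells that carried CD326, a gate meant to remove cells of these kinds. Of 10 markers of Schwann and satellite glia 7 were in the table, and their summed signals were 2986 in cochlear HCs, 3032.75 in cochlear ENSCs, 849.5 in vestibular HCs and 3801.25 in vestibular ENSCs. *Prx*, a myelin gene, was at the floor in 3 libraries and at 22.5 in vestibular ENSCs. Of 12 neuronal markers 6 were in the table, with summed signals of 4758.25, 448.75, 5245 and 127.75 in the same order. *Nefl* and *Nefm* made up most of this in HCs. *Elavl4* (271.5 and 586.75 in cochlear and vestibular HCs, 101.25 and 20.5 in the ENSCs) was also highest in HCs, and *Rbfox3* was at 58 in cochlear HCs and at the floor elsewhere. The remaining *Stmn2* and *Scn9a* were highest in cochlear ENSCs (81.5 and 128.25). Of 11 markers of mesenchyme and fibroblasts 8 were in the table, with summed signals of 1063.5 in cochlear HCs, 16342 in cochlear ENSCs, 267.75 in vestibular HCs and 2276.75 in vestibular ENSCs. This sum was highest in the library with the *Ngfr* signal, also without *Lum*, its most abundant gene (335.25, 3610.75, 237.25 and 1863), although 5 of the 8 genes were highest in vestibular ENSCs. The part of supporting cells, neurons, glia and mesenchyme in the receptor signals was not tested.

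*Sort1* (ENSMUSG00000068747, chromosome 3, 108087009 to 108164429) was the only receptor gene with a high signal in every population. It had 556.25 in cochlear HCs, 628.5 in cochlear ENSCs, 697.25 in vestibular HCs and 1687.75 in vestibular ENSCs. The other libraries lay close together and vestibular ENSCs were above them. Vestibular ENSCs were 2.42-fold above vestibular HCs and 2.69-fold above cochlear ENSCs, both under 3-fold, and the 2 cochlear libraries differed by 1.13-fold. Per kb of exon *Sort1* was the highest of the 6 genes in both ENSC libraries, at 83.1 and 223. Vestibular ENSCs were also the library in which *Kdr*, the only gene of 10 endothelial and blood markers in the table, was highest (1461.75, against 24.25 to 29.75 elsewhere) and in which the 7 epithelial markers had their highest sum (25598.75, against 1817.5 to 10213.25). The part of these cells in the *Sort1* signal was not tested. Exons of *Sort1* overlap those of *Gm12523*, a transcript of the opposite strand, and because the strand setting of the counting is not stated, reads of the overlap cannot be assigned to one strand.

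Read over the 4 contrasts, 9 of 24 ratios were at least 3-fold, and 7 when each tied range was set to its top. Within the cochlea 3 members passed 3-fold, against 17.6% of all genes: *Bdnf* was higher in HCs (8.39% of all genes), and *Ntrk2* and *Ngfr* were lower (9.2%). Within the vestibular system 1 member passed, against 28.1% of all genes: *Bdnf* was higher in HCs (13.8%), and no member was 3-fold lower (14.3%). Between HC libraries 3 members passed, against 9.3% of all genes, with *Ntf3* higher in the cochlea (4.21%) and *Ntrk2* and *Ntrk3* lower (5.09%). Between ENSC libraries 2 members passed, against 15.7% of all genes, with *Ntf3* and *Ngfr* higher in the cochlea (7.8%) and no member 3-fold lower (7.94%). Contrasts that share a library share its error, so the *Ntrk2* and *Ntrk3* differences from cochlear HCs are not separate observations.

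**Figure D3:**
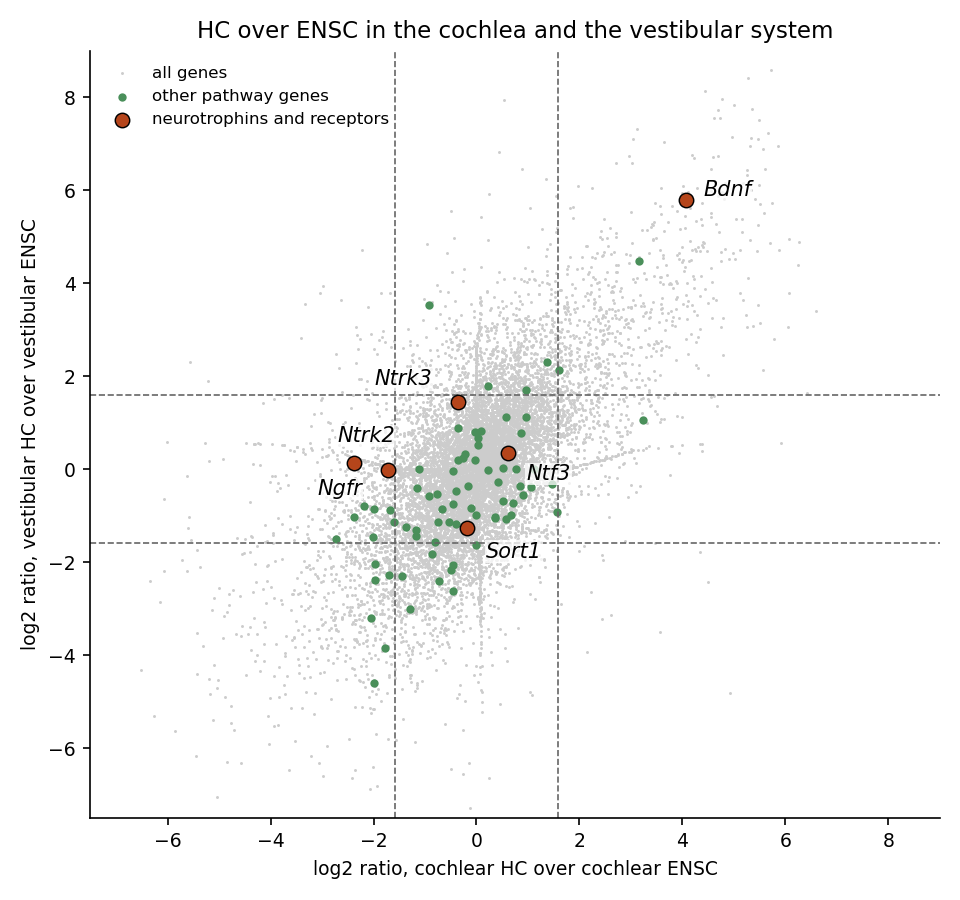
Log2 ratio of HCs to ENSCs in the cochlea (x axis) and in the vestibular system (y axis), 1 point per gene, with all 12814 genes in grey, other pathway genes in green and the 6 genes named. Dashed lines mark 3-fold. *Bdnf* is past 3-fold in both organs (4.08 and 5.78), and *Ntrk2* (-2.38) and *Ngfr* (-1.72) are past it in the cochlea alone.

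**Figure D4:**
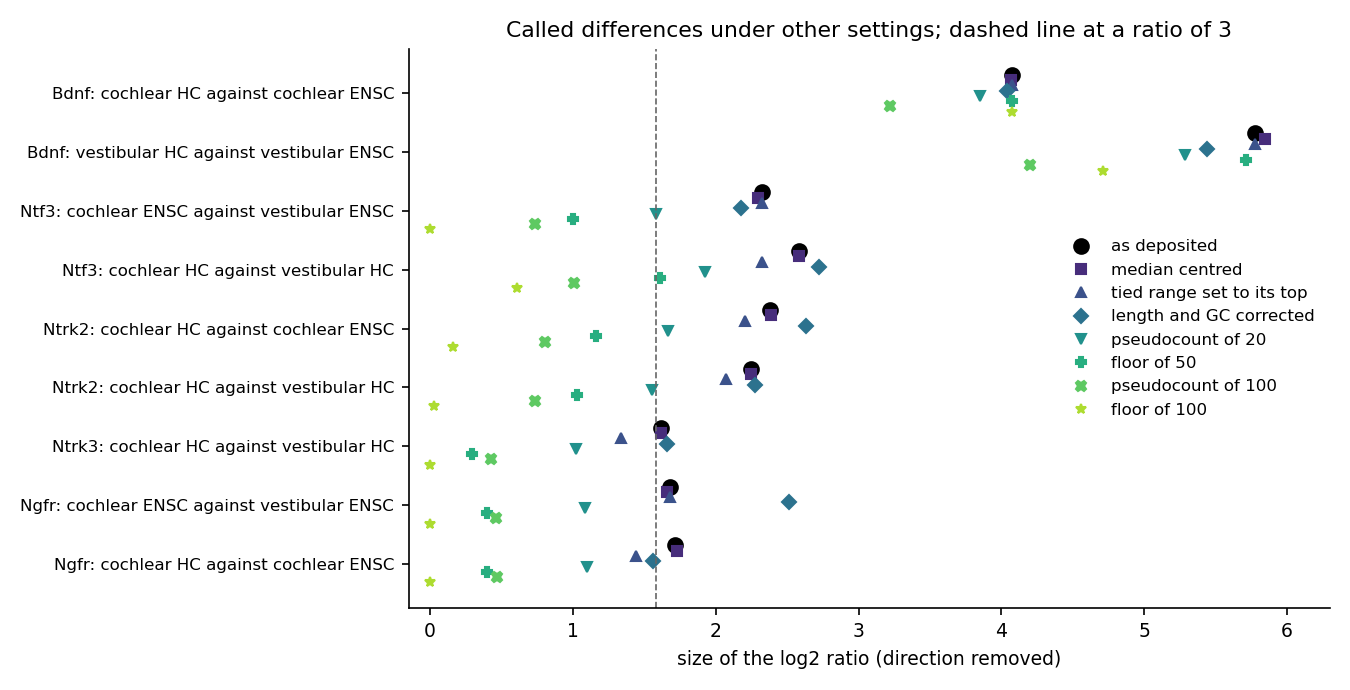
Size of the log2 ratio, with the direction removed, for the 9 differences that passed 3-fold, each as deposited and under 7 other settings (the alternatives of the threshold and of the gene filter leave a ratio as it is). *Bdnf* stays right of the dashed line at 3-fold in every setting, whereas with a floor of 100 the other 7 differences fall to between 0 and 0.61.

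The other genes of the pathway were described from lists, in which 76 of 100 listed genes were in the table. In the cochlea 21.1% of the 76 genes were at least 3-fold apart, against 17.6% of all genes, with 3 higher and 13 lower in HCs. The vestibular shares were 26.3% against 28.1%, with 6 genes higher and 14 lower. The 76 genes had a median log2 ratio of -0.31 within the cochlea, where all genes had 0, and of -0.74 within the vestibular system, where all genes had -0.0045. The shares were thus near those of all genes, and most of the calls were towards ENSCs. Taken by direction, 8.39% of all genes were higher in cochlear HCs and 9.2% lower, while 13.8% were higher in vestibular HCs and 14.3% lower, and the counts of the lists below stand against these. Over all genes above the floor in both libraries, the vestibular ratio of HCs to ENSCs was lower in genes of higher GC content (Spearman's rho -0.395 across genes, which are not independent), and the cochlear ratio much less so (-0.04). The ratio of cochlear to vestibular ENSCs depended on GC content most (-0.453), and that of cochlear to vestibular HCs little (0.0215).

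Genes that process and release neurotrophin precursors held the highest ratios towards HCs. *Cpe*, which encodes carboxypeptidase E, a sorting protein of secretory granules, reached 8726.5 in cochlear HCs against 980.5 in the ENSCs (log2 ratio 3.15), and 10316.75 and 466 in the vestibular system (4.47). *Pcsk1*, a proprotein convertase of such granules, had 203.5 in cochlear HCs against 21.75 in cochlear ENSCs, a fold of at least 8.95. Its vestibular signals were 41.5 in HCs and 20 in ENSCs. *Cadps2*, which encodes a protein that primes dense-core vesicles for release, differed between organs, with 4100.75 in vestibular HCs and 356.75 in vestibular ENSCs (3.52) but 821.75 and 1562.5 in the cochlea (-0.93). Of the 9 genes of this list in the table, 2 were higher and 0 lower in cochlear HCs, and 3 were higher and 2 lower in vestibular HCs. The remaining vestibular calls, named after their values were seen, were *Pcsk5* (1.70), another convertase, and towards ENSCs *Plat* (-2.30), the tissue plasminogen activator, and *Furin* (-2.07), the convertase of the constitutive pathway. The *Furin* call was lost after correction for length and GC content (-1.26).

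Among the relatives of sortilin, *Sorl1* stood at 160.5 in HCs of the cochlea against 663.5 in its ENSCs (log2 ratio -2.05), and 219.5 and 2010.0 in the vestibular system (-3.19), so that both ENSC libraries were above both HC libraries. *Sorcs2*, which encodes a partner of p75, was lower by a factor of at least 3.74 in cochlear HCs (22.5 against 90.75 in ENSCs) and had 74 and 204.25 in vestibular HCs and ENSCs. *Sorcs1* stayed under 3-fold, at 284.5 and 103 in cochlear HCs and ENSCs and at 233 and 290.75 in their vestibular counterparts. *Sorcs3* had 34.75 and 63.25 in cochlear and vestibular ENSCs, with both HC libraries inside the tied range. Of these 4 genes 2 were 3-fold lower in cochlear HCs and 1 in vestibular HCs.

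Proteins that bind p75 were in the table for 11 of 12 listed genes, of which 2 were lower in cochlear HCs and 3 in vestibular HCs, and none was higher. *Maged1*, an adaptor of p75, had 417.25 and 1650.75 in cochlear HCs and ENSCs (-1.98), and 364 and 8780.25 in the vestibular system (-4.59). *Tnfrsf19*, a relative of p75, had log2 ratios of -1.78 and -3.84. The remaining vestibular call, named after its value was seen, was *Arhgdia* (-3.02, and -1.60 after correction for length and GC content, just past 3-fold).

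Further down the pathway, 18 of 23 Trk adaptors were in the table. In the cochlea 2 were lower in HCs, the docking protein *Gab1* (1615.75 against 4877.75, log2 ratio -1.59) and, named after its value was seen, *Slitrk5*, a partner of TrkB, which was at least 2.73-fold lower and so under 3-fold against the tied range. The *Gab1* call was close to the threshold and was lost after correction for length and GC content (-1.557). *Rapgef1*, an activator of Rap1, had a log2 ratio of 1.57 towards cochlear HCs and stayed under 3-fold. Vestibular HCs were higher in 2 genes, the Shc adaptors *Shc2* (2.30) and *Shc4* (1.78). The Ras-MAPK and PI3K-Akt arm had 23 genes, with 1 higher and 2 lower in cochlear HCs and with 1 higher and 4 lower in vestibular HCs. The kinase *Braf*, named after its value was seen, was the higher one in both organs (4437.25 against 1461.75 in the cochlea, and a vestibular log2 ratio of 2.14), and both calls were lost after correction for length and GC content (1.35 in each organ). The lower ones in the cochlea were *Pik3r1* (-2.39), the regulatory subunit of PI3-kinase, and *Nras* (-1.97). The vestibular ones were *Mapk3* (-2.61) and *Rps6ka2* (-2.40) and, named after their values were seen, *Akt1* (-2.16) and *Nras* (-2.05). The same correction took *Mapk3* (-1.41) and *Akt1* (-0.88) under 3-fold and brought *Map2k5* (from 0.88 to 1.598) and *Rps6ka3* (from -1.31 to -1.9988), named after their values were seen, past it.

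**Figure D5:**
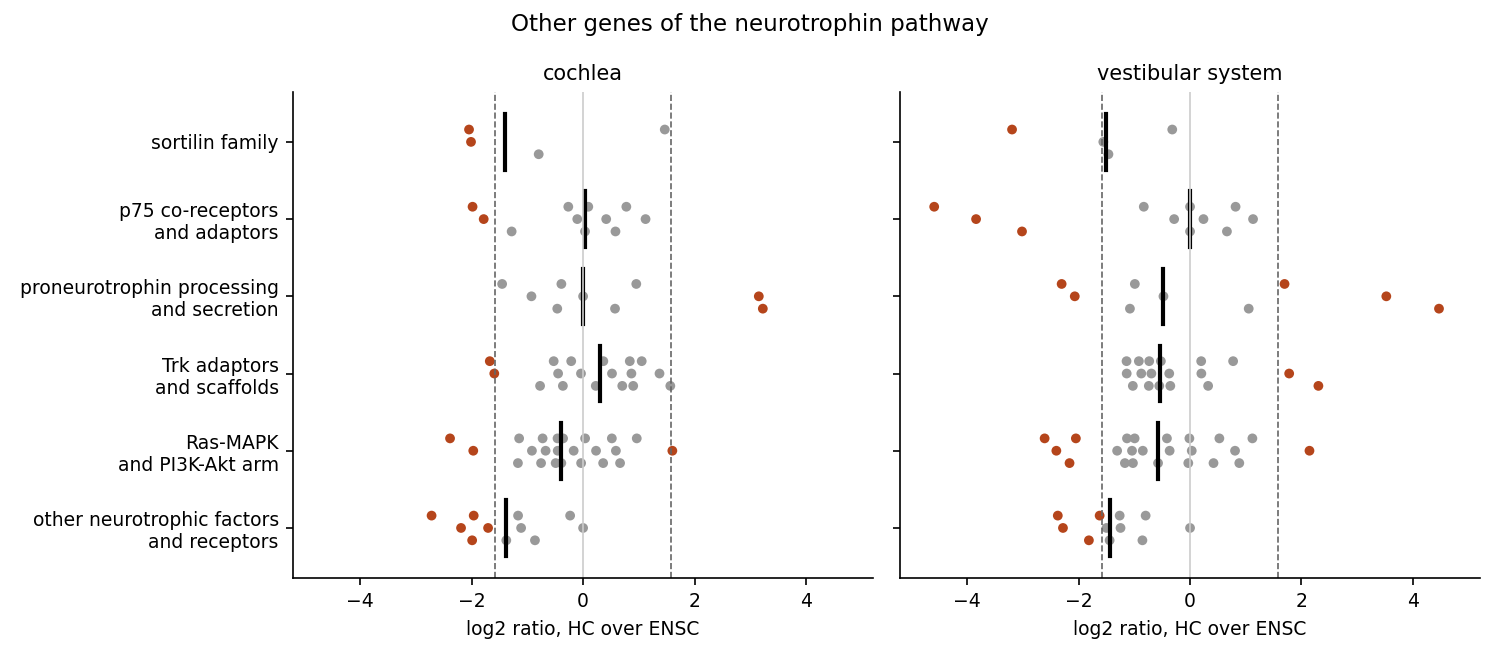
Log2 ratio of HCs to ENSCs for the listed pathway genes in each organ, 1 point per gene, in red where the ratio is at least 3-fold, with the list median as a black bar and dashed lines at 3-fold. The points furthest right are *Pcsk1* and *Cpe* in the cochlea (3.23 and 3.15) and *Cpe* and *Cadps2* in the vestibular system (4.47 and 3.52), and the point furthest left is vestibular *Maged1* (-4.59).

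For each member the 3 genes with the most similar pattern were sought in 8737 protein-coding genes that reached a signal of 100 in some library. Likeness was the Euclidean distance between the 4 log2 signals, each centred on the gene's own mean, and over 4 libraries it is a description only. Closest to *Bdnf* were *Cdkl4* (distance 0.149), a kinase gene, *Chgb* (0.179), which encodes the granule protein chromogranin B, and *2900006K08Rik* (0.442). *Chgb* had 827 in cochlear HCs, 983.25 in vestibular HCs, 46.5 in cochlear ENSCs and 20 in vestibular ENSCs. All 3 were at the floor in vestibular ENSCs, where *Bdnf* was at 47.75.

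Closest to *Ntf3* were *5033430I15Rik* (0.153), *Ism1* (0.234), which encodes the secreted protein isthmin, and *Coq7* (0.304), a gene of coenzyme Q synthesis. All 3 were inside the tied range in vestibular HCs, as *Ntf3* was. Closest to the Trk receptors were *Phyh* (0.241), *Gm8186* (0.2997) and *Dmrta1* (0.317) for *Ntrk2*, and *Lin7a* (0.227), *Mrpl42* (0.271) and *Zfp57* (0.310) for *Ntrk3*. For *Ngfr* they were *Sc5d* (0.0663), an enzyme gene of sterol synthesis, *Tmem64* (0.151) and *AW146154* (0.210), and for *Sort1* they were *Tpm4* (0.0944), a tropomyosin gene, *2610507B11Rik* (0.103) and *2010011I20Rik* (0.128).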

How the data were processed

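The authors cut the reads to their first bases, mapped them with TopHat to mm9, and obtained HTSeq read counts for ENSEMBL genes. They describe quantile normalization and then a floor of 20, and the deposited values are therefore treated as a signal. The tied ranges that reach above 20 would instead arise from a floor set before the normalization. Tools and build are also named in the submitters' processing notes. Their versions, the annotation release and the strandedness of counting are not given in the sources used here. RNA was amplified before sequencing, and the labels and the methods name different extraction kits. Triplicates are mentioned in the design text, whereas 1 column per population was analysed. Columns named for non-HCs were matched to the ENSC samples of the same organ. Quantile normalization hides any overall shift between populations.

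Ratios were computed without a pseudocount and called at 3-fold. The tied range of a library ended where the median, over genes with the same signal, of their highest signal elsewhere dropped to under 1/5, and was the floor if that median had not risen 5 times before. Positions, lengths and GC content came from GENCODE for NCBIM37 (mm9), in which 12799 genes were found. Length and GC trends were removed by lowess (statsmodels 0.14.6, span 0.3, 2 robust steps). The steps were tested on simulated data.

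The members and lists were chosen with earlier results of these data known. Named were the members, the sortilin relatives, the 2 genes of each other list with the largest ratio per organ at a signal of at least 100, and the 3 genes most like each member. Alternatives were floors of 50 and 100, pseudocounts of 20 and 100, median centring, thresholds of 2 and 5, the trend correction, tied ranges set to their top, and a minimum signal of 100. Python 3.11.15, numpy 2.4.6, pandas 2.3.3 and matplotlib 3.10.9 were used. Some results on single marker genes are not reported here.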

Additional observations from a re-analysis of the deposited data

Results flagged for a closer look

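2 members had deposited ratios of HCs to ENSCs with opposite signs in the 2 organs, and in each the sign in 1 organ rested on a small ratio. With 1 library per population the difference was not tested. For *Ntrk2* the cochlear log2 ratio was -2.38 and the vestibular one 0.14, a vestibular minus cochlear difference of 2.52, which was above that of 96.2% of all genes. With cochlear HCs set to the top of their tied range it was 2.35. After length and GC correction the vestibular ratio was -0.078, so that both organs then had the same sign. For *Ntrk3* these were -0.36 and 1.44, a difference of 1.81, above that of 91.6% of all genes, and 1.53 with the tied range set to its top. Its cochlear ratio was then -0.087, and with a floor of 50 it was 0. In both genes the signal of cochlear HCs was inside the tied range, and the *Ntrk3* signals ran from 20 to 61.25.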

How the results depend on the processing

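Over 10 alternatives, which include thresholds of 2 and 5 in place of 3, 196 of 232 log2 ratios of the members stayed on their side of the threshold in use, 31 lost their call and 5 gained one, and no called ratio changed sign. Of these, a threshold of 5 alone accounts for 4 losses and a threshold of 2 for 4 gains, with the ratios as they were. Centring on the median ratio changed no call. The ratios of *Bdnf* between HCs and ENSCs passed every alternative. The depth is unknown, and a floor or pseudocount of 100 is above most receptor signals, so these settings remove their differences by construction. No paired analysis was possible because each population had 1 library.

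With a floor of 50 the log2 ratios that fell under 3-fold were those of *Ngfr* between ENSCs (0.40; cochlear over vestibular, as for all contrasts between organs) and between cochlear HCs and ENSCs (-0.40), of *Ntf3* between ENSCs (1), of *Ntrk2* between cochlear HCs and ENSCs (-1.16) and between HCs (-1.03), and of *Ntrk3* between HCs (-0.29). With a floor of 100 the same contrasts gave 0 and 0 for *Ngfr*, 0 for *Ntf3*, -0.16 and -0.029 for *Ntrk2* and 0 for *Ntrk3*, and *Ntf3* between HCs fell to 0.61. A pseudocount of 100 gave 0.46 and -0.47 for *Ngfr*, 0.74 for *Ntf3* between ENSCs and 1.01 between HCs, -0.80 and -0.73 for *Ntrk2* and -0.43 for *Ntrk3*. A pseudocount of 20 left *Ngfr* at 1.08 and -1.10, *Ntrk2* between HCs at -1.56 and *Ntrk3* between HCs at -1.02. Setting tied ranges to their top took *Ngfr* between cochlear HCs and ENSCs to -1.44 and *Ntrk3* between HCs to -1.34. Length and GC correction took the former to -1.56 and vestibular *Ntrk3* past 3-fold (1.73), and moved *Ngfr* between ENSCs from 1.68 to 2.51. A threshold of 5 lost *Ngfr* (1.68 and -1.72), *Ntrk2* between HCs (-2.25) and *Ntrk3* between HCs (-1.61). A threshold of 2 added *Bdnf* between ENSCs (1.21), vestibular *Ntrk3* (1.44), and *Sort1* between ENSCs (-1.43) and in the vestibular system (-1.28).

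The number of members past the threshold was 3 in the cochlea, 1 in the vestibular system, 3 between HCs and 2 between ENSCs. The cochlear number was 1 with either floor or a pseudocount of 100. The vestibular number was 2 after length and GC correction and 3 at a threshold of 2. Between HCs it was 1 with a floor of 50, a pseudocount of 20 or a threshold of 5, and 0 with a floor or pseudocount of 100. Between ENSCs it was 0 with either floor or a pseudocount of 100, 1 with a pseudocount of 20, a threshold of 5 or genes with a signal of at least 100, and 4 at a threshold of 2. For the other pathway genes the counts were 16, 20, 6 and 9 in the same order. A threshold of 2 gave 28, 38, 13 and 26, a threshold of 5 gave 4, 9, 1 and 2, and a pseudocount of 100 gave 8, 12 and 2 in the cochlea, in the vestibular system and between ENSCs.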

Other observations

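Genes of neurotrophic factors outside the neurotrophin family and of their receptors were lower in HCs where they passed 3-fold. Of 20 listed genes 11 were in the table, and in the cochlea 5 of them were at least 3-fold lower and 0 higher in HCs, where 9.2% of all genes were lower. With tied ranges set to their top this was 4. *Mdk*, which encodes the heparin-binding factor midkine, stood at 114.5 in HCs of the cochlea against 754.25 in its ENSCs (log2 ratio -2.72), and at 798.5 against 2258 in the vestibular libraries (-1.50). *Lifr*, the receptor gene of leukaemia inhibitory factor, had log2 ratios of -2.19 and -0.80. The remaining cochlear calls, named after their values were seen, were *Ptn* (-1.99), *Gfra1* (-1.96) and *Gfra2* (-1.71), the last at least 2.96-fold lower and so under 3-fold against the tied range. Of the vestibular ratios 4 were 3-fold lower and 0 higher, where 14.3% of all genes were lower, and 3 were lower with tied ranges set to their top. All 4 were genes of receptors. *Gfra1* and *Gfra2*, which encode the co-receptors of the GDNF family, had log2 ratios of -2.37 and -2.28, with the latter at least 3.98-fold lower, and, named after their values were seen, *Il6st* (-1.82) and *Ret* (-1.62) followed. *Ret*, the signalling receptor of the GDNF family, had 67.75 in vestibular ENSCs, at least 2.22-fold above vestibular HCs, and stood at 20 in each cochlear library. Its call was also lost after length and GC correction (-1.20).

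Between the HC libraries 6 of the 76 pathway genes passed 3-fold (7.89%, against 9.3% of all genes), with 2 higher and 4 lower in the cochlea, all named after their values were seen. The higher ones were *Pcsk1* (203.5 against 41.5, log2 ratio 2.29) and *Tnfrsf19* (596 against 129.75). The lower ones were *Mdk* (-2.80), *Cadps2* (-2.32), *Ptn* (-2.30) and *Sorcs2* (-1.72).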
